A study of Mus musculus with 9 samples.

Results

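The genes described are 8 genes of diacylglycerol signalling in T cells: the diacylglycerol kinase genes Dgka, Dgkz and Dgke, the Ras exchange factor genes Rasgrp1 and Rasgrp2, the protein kinase C genes Prkcq and Prkcd, and the phospholipase gene Plcg1. They are 8 of 17097 genes with a named probe set on the arrays, and 14 of 45037 probe sets. Each gene was read from a probe set that names that gene alone, selected on the highest mean level over all 9 arrays and not on genotype. The list of genes was drawn up with earlier results of these arrays known, among them that of Dgka, so the differences below describe these arrays and are no independent support for a change in the pathway.

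CD8+ T cells that recognise OVA, a model antigen, were sorted from the spleen of C57BL/6 mice on day 9 after infection with Listeria monocytogenes, and 12 ng of total RNA per sample was labelled for 1 expression array. The 4 WT samples came from mice with floxed Tsc1 alleles and no cre. The 5 Tsc1-/- samples came from mice with the same floxed alleles and a Granzyme B-cre transgene, which is active in cells that have switched on granzyme B. The Tsc1 protein is part of a complex that holds back mTORC1, a kinase that drives cell growth. All Tsc1-/- samples and no WT sample carried cre, so loss of Tsc1 and cre cannot be told apart. The labels do not say whether each sample was a separate animal, and p-values measure only the spread between these samples.

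When a T cell receptor binds antigen, phospholipase C gamma splits a membrane phosphoinositide into inositol trisphosphate, which releases calcium, and diacylglycerol, which stays in the membrane. Diacylglycerol recruits RasGRP proteins, which load Ras with GTP, and protein kinase C theta, which leads to NF-kB. Diacylglycerol kinases end this signal by converting diacylglycerol to phosphatidic acid. In T cells the alpha and zeta kinases do most of this work, and Dgka is known as a gene of resting T cells that is driven by FoxO factors and shut down after activation.

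RefSeq start-site windows of GRCm38.p6, from 250 bases before to 50 bases after a start, were found for all 8 genes, 14 windows in all. A Dgka window is shown because Dgka was the gene whose level fell. It is the most downstream of the 4 and the only one of them that holds the letters marked below. The Prkcq window is shown because Prkcq was the other gene whose genotypes did not overlap. Capitals mark the letters TAAACA, the core of forkhead motifs, searched on both strands after the Dgka windows had been read.
Dgka, chr10:128737563-128737862, minus strand: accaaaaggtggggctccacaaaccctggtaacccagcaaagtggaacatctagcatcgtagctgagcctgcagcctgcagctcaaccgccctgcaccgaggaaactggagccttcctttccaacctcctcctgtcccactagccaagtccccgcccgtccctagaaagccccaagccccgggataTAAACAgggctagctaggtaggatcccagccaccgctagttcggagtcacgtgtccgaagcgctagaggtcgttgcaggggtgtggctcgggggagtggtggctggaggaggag
Prkcq, chr2:11172132-11172431, plus strand: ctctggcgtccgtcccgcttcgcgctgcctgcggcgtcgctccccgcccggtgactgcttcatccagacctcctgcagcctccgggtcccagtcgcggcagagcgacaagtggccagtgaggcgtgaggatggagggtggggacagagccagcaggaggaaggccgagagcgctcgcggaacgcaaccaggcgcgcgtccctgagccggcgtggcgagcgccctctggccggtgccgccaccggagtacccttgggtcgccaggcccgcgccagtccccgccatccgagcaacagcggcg
The match in Dgka begins 64 bases before the annotated start and was the only match to TAAACA among the 14 windows. Such a match is common: 13.4% of 32851 windows of all genes hold one, and 15.1% of 27025 genes have one in at least 1 window. The longer letters GTAAACA (3.65% of windows, overlapping the core) and the AP-1 letters TGANTCA (7.81% of windows) were in none of the 14. These matches are a description of the sequence, and no binding was measured here.

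The comparison of genotypes asks which of these genes differ in responding CD8+ T cells without Tsc1. Dgka fell in Tsc1-/- cells to 66.9% of its WT level (95% interval 58.1% to 77.1%), and it was the only one of the 8 genes past the threshold, an adjusted p under 0.05 over all 17097 genes (limma). None of the 8 rose. The differences of the other 7 genes lay between -0.16 and 0.03 on the log2 scale. By the same rule 0.310% of all genes were lower and 0.971% higher. The median difference of the 8 genes was -0.10, against -0.01 over all genes.

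Array medians lay between 5.97 and 6.05 and Pearson correlations between arrays, over all probe sets, between 0.982 and 0.991. The mean of 11 CD8+ T cell markers was 11.34 to 11.42 in WT and 11.39 to 11.46 in Tsc1-/-, and none of the 11 passed the threshold. Of the 11, 4 had a negative difference, the lowest -0.08. Cd3e, of the T cell receptor complex, averaged 11.81 in WT and 11.82 in Tsc1-/-, and Cd8a 12.08 and 12.10. Gzma, which encodes granzyme A of the cytotoxic granules, was separated between the genotypes, at 12.63 in WT and 12.95 in Tsc1-/-, a difference of 0.32 (95% interval 0.14 to 0.49; adjusted p = 0.0703, limma). Tsc1 itself averaged 7.66 ± 0.09 (SD, n = 4) in the controls against 7.40 ± 0.09 (SD, n = 5) in the Tsc1-/- samples, with no overlap and an adjusted p of 0.114 (limma). The Tsc1 probe set was not placed relative to the floxed exons here, so it checks the labels only in part. Macrophage and monocyte markers were lower in Tsc1-/- in 10 of 11 genes, none past the threshold, and their mean level was 6.78, 6.91, 6.72 and 6.11 in the 4 WT arrays, in replicate order, and 5.99 to 6.36 in Tsc1-/-. The largest differences among them were those of Lyz2, -1.03 (adjusted p = 0.199, limma), and C1qa, -0.96 (adjusted p = 0.0586, limma). Both overlapped between the genotypes, and both differences were larger than that of Dgka, -0.58. So was that of C1qc, -0.65, which overlapped too. Adgre1 differed by -0.59, about as much as Dgka, and its genotypes did not overlap (adjusted p = 0.0636, limma). B cell markers were lower in 8 of 9 genes, none past the threshold, with a mean level of 5.50 to 6.01 in WT and 5.22 to 5.67 in Tsc1-/-. The largest differences among these were those of Cd22, -0.63 without overlap (adjusted p = 0.0605, limma), and Cd79a, -0.53 (adjusted p = 0.374, limma). Dendritic cell markers were lower in 7 of 7 genes, with a mean level of 8.01 to 8.68 in WT and 7.65 to 8.43 in Tsc1-/-, and neutrophil markers in 6 of 6, at 7.17 to 8.09 and 6.04 to 8.60; none of these genes passed either. The mean levels of the macrophage, B cell, dendritic cell and neutrophil lists differed by -0.46, -0.30, -0.39 and -0.41. In bulk RNA, fewer cells of a type and less RNA per cell cannot be told apart.

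Dgka, the alpha kinase, read 10.97, 10.77, 10.62 and 10.67 in WT replicates 1 to 4. In Tsc1-/- replicates 1 to 5 it read 10.05, 10.12, 10.17, 10.37 and 10.18. All Tsc1-/- arrays were below all WT arrays, and the closest arrays, WT replicate 3 and Tsc1-/- replicate 4, were still apart. The means were 10.76 ± 0.16 (SD, n = 4) and 10.18 ± 0.12 (SD, n = 5), a difference of -0.58 (SE 0.09, 95% interval -0.78 to -0.38; adjusted p = 0.0304, limma). It ranked 24 of 17097 genes by p and 7 among the genes with a negative difference. In the fit over all probe sets, where 0.0866% were lower at the threshold, its adjusted p was 0.0466 (limma). Dgka has 1 named probe set, so no further probe set could be set beside it.

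**Figure D1:**
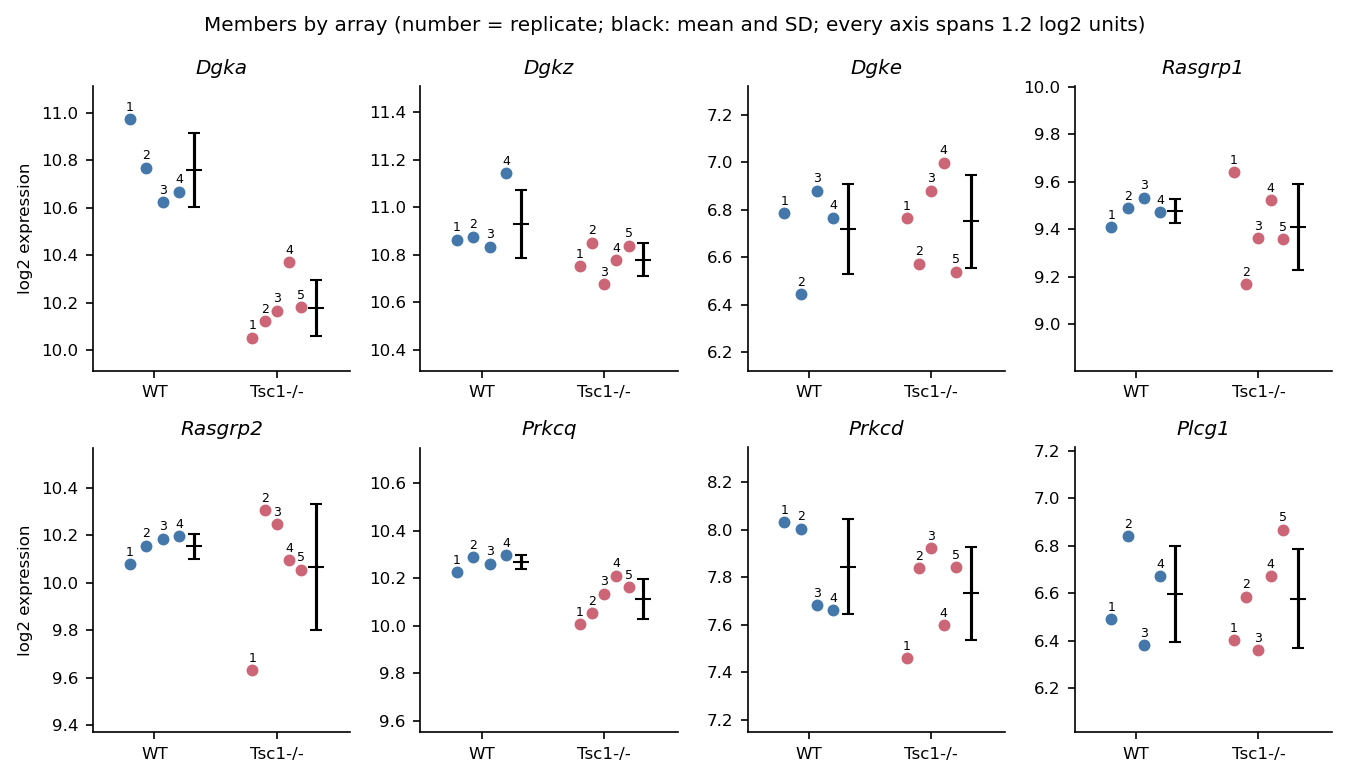
Log2 expression of the 8 genes on every array, by genotype; the small numbers are replicates, the black marks the mean and SD, and each axis spans 1.2 log2 units. Dgka is lower in all 5 Tsc1-/- arrays than in all 4 WT arrays, Prkcq is also separated but by less, and the other 6 genes overlap.

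The Dgka call depended on the arrays included. Without WT replicate 1 the difference was -0.51 (adjusted p = 0.106, limma), without WT replicate 2 it was -0.58 (adjusted p = 0.0939), without Tsc1-/- replicate 2 it was -0.57 (adjusted p = 0.0697) and without Tsc1-/- replicate 5 it was -0.58 (adjusted p = 0.0826). In those 4 fits only 1 or 2 genes of all tested were lower at the threshold. In the 5 fits that left out another array Dgka passed, at -0.63 to -0.55. When the macrophage marker level entered the fit as a covariate, the difference was -0.57 (SE 0.14, adjusted p = 0.272), and with the B cell marker level -0.60 (SE 0.13, adjusted p = 0.228); the size stayed and the call was lost. The part of macrophages and B cells in the Dgka difference was not tested further.

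**Figure D2:**
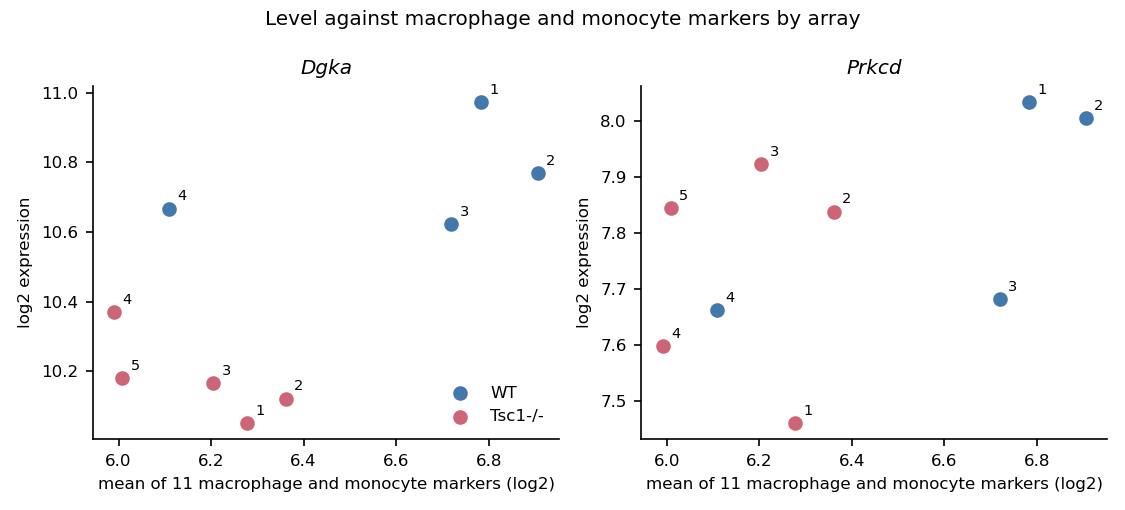
Log2 expression of Dgka (left) and Prkcd (right) against the mean of 11 macrophage and monocyte markers on each array, with replicate numbers. Marker levels span 6.11 to 6.91 among the WT arrays and 5.99 to 6.36 among the Tsc1-/- arrays; the genotypes are apart for Dgka and mixed for Prkcd.

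Dgkz, the zeta kinase that works beside the alpha kinase in T cells, read 10.86, 10.88, 10.83 and 11.14 in WT and 10.75, 10.85, 10.68, 10.78 and 10.84 in Tsc1-/-. WT replicate 4 was the highest array, and the genotypes overlapped. The difference was -0.15 (SE 0.08, 95% interval -0.33 to 0.03; adjusted p = 0.389, limma), which leaves a level between 79.3% and 102% of WT. Without WT replicate 4 it was -0.08. Adding the macrophage marker level to the fit gave -0.29 (95% interval -0.53 to -0.05; adjusted p = 0.420, limma) and adding that of B cells -0.25 (95% interval -0.48 to -0.01; adjusted p = 0.448), while the mean of both probe sets gave -0.04. The further Dgkz probe set pointed the other way, at 0.06 (95% interval -0.17 to 0.30), with WT replicate 2 at 9.38 and the other 8 arrays at 8.85 to 9.14.

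Dgke, the epsilon kinase, which prefers diacylglycerol with arachidonate, read 6.78, 6.44, 6.88 and 6.77 in WT. In Tsc1-/- it read 6.76, 6.57, 6.88, 6.999 and 6.54, so both genotypes covered nearly the same range. Its difference was 0.03 (95% interval -0.22 to 0.29), and that of its further probe set was -0.03. Dgke lay near 6.34, the median level over genes. The SE of its difference was 0.12, as was that of the brighter gene Rasgrp2.

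The gap between Dgka and Dgkz within each array is given as a description, with no test, since the genes were chosen with the Dgka result known. Dgka minus Dgkz was 0.11, -0.11, -0.21 and -0.48 in WT and -0.70, -0.73, -0.51, -0.41 and -0.66 in Tsc1-/-. Only WT replicate 4 lay within the Tsc1-/- range. The genotypes differed in this gap by -0.43, by -0.53 to -0.34 without single arrays, and by -0.54 with the mean of both Dgkz probe sets. In the fit with macrophage marker level the difference of Dgka was -0.57 and that of Dgkz -0.29, so they lay closer together than as reported.

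**Figure D3:**
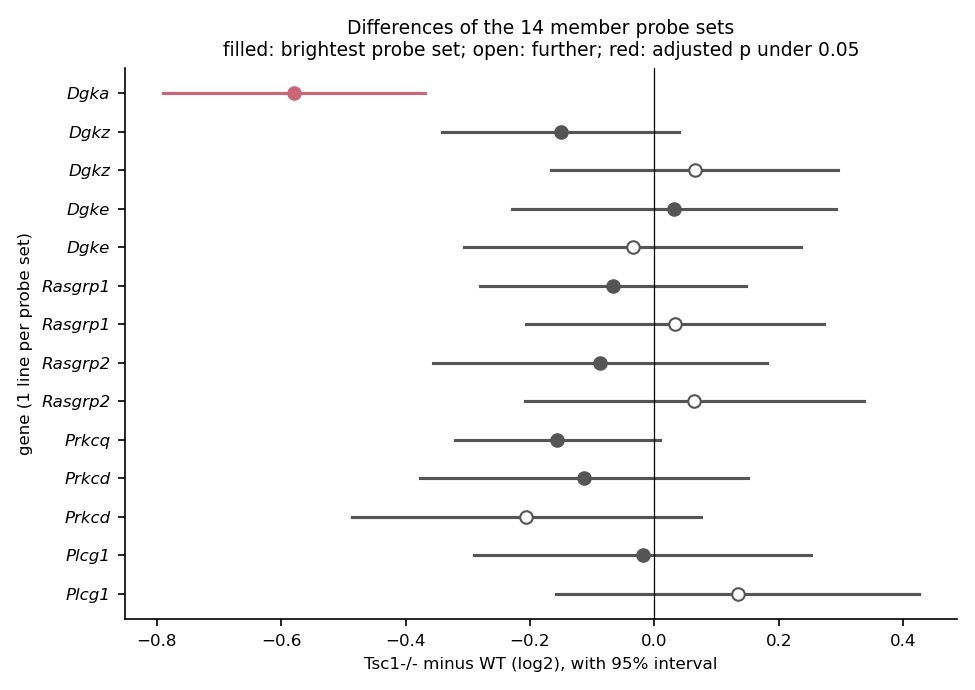
Difference Tsc1-/- minus WT on the log2 scale for all 14 probe sets of the 8 genes, with 95% intervals from the fit over all 45037 probe sets; filled points are the brightest probe set of a gene and open points the further ones. The interval of Dgka ends at -0.37, and all 13 others include 0.

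Rasgrp1, the main diacylglycerol-dependent activator of Ras in T cells, read 9.41, 9.49, 9.53 and 9.47 in WT. In Tsc1-/- it read 9.64, 9.17, 9.36, 9.52 and 9.36, a wider spread on both sides of WT. Its difference was -0.07 (95% interval -0.27 to 0.14), and that of the further probe set was 0.03. Its level in Tsc1-/- was thus 82.7% to 110% of WT.

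Rasgrp2, whose product mainly activates Rap1 and is also known from platelets and neutrophils, read 10.08, 10.16, 10.19 and 10.20 in WT. In Tsc1-/- it read 9.63, 10.31, 10.25, 10.09 and 10.06. Tsc1-/- replicate 1 was the lowest of all 9 arrays, and without it the difference turned from -0.09 (95% interval -0.35 to 0.18) to 0.02. The same array had the highest Rasgrp1 value, and Tsc1-/- replicate 2 had the highest Rasgrp2 and the lowest Rasgrp1 value. Tsc1-/- replicate 2 also had the highest mean of 6 neutrophil markers, 8.60 against 6.04 to 8.09 elsewhere, and of 4 erythroid markers, 7.35 against 6.17 to 6.92. The mean of 6 platelet markers was 5.75 in Tsc1-/- replicate 1, the lowest array, and 5.84 to 6.17 in the others. Other arrays did not follow the same order. Tsc1-/- replicate 5 had the lowest neutrophil mean, 6.04, with Rasgrp2 at 10.06, and WT replicate 2 the highest platelet mean, 6.17, with Rasgrp2 at 10.16. The part of these cells in the Rasgrp2 values was not tested.

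Prkcq, which encodes the theta kinase of the immune synapse, read 10.23, 10.29, 10.26 and 10.30 in WT and 10.01, 10.05, 10.13, 10.21 and 10.16 in Tsc1-/-. The WT arrays were close together, and all Tsc1-/- arrays lay below them, Tsc1-/- replicate 4 by the least. The means were 10.27 ± 0.03 (SD, n = 4) and 10.11 ± 0.08 (SD, n = 5). The difference of -0.16 (SE 0.07, 95% interval -0.31 to 0.00) did not pass (adjusted p = 0.299, limma), nor did it in any of the 20 other settings (-0.22 to -0.11). Dgka and Prkcq were 2 of the 8 genes with every Tsc1-/- array below WT, a pattern that 2.88% of all genes had.

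Prkcd, the delta kinase, which is strongly used by B cells and myeloid cells, read 8.03, 8.01, 7.68 and 7.66 in WT and 7.46, 7.84, 7.92, 7.60 and 7.84 in Tsc1-/-. The genotypes overlapped in the middle of this range, while the highest values, 8.03 and 8.01, were WT and the lowest, 7.46 and 7.60, Tsc1-/-. Its difference was -0.11 (95% interval -0.37 to 0.15), that of the further probe set was -0.21 (95% interval -0.49 to 0.07), and it was 0.04 with the macrophage and -0.08 with the B cell marker level as a covariate. Prkcq minus Prkcd within an array differed between genotypes by -0.04.

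Plcg1, the phospholipase that makes diacylglycerol below the T cell receptor, read 6.49, 6.84, 6.38 and 6.67 in WT. In Tsc1-/- it read 6.40, 6.59, 6.36, 6.67 and 6.87, and neither genotype stood out. The difference was -0.02 (95% interval -0.28 to 0.25) and that of the further probe set 0.13 (95% interval -0.16 to 0.43). Like Dgke it lay near the median level over genes, and its interval leaves a level of 82.1% to 119% of WT.

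Around these 8 genes, 10 lists of the pathway held 115 genes, of which 98 were measured and the other 17, with no named probe set, were not analysed here. Of the 98 genes, which include the 8, Dgka was lower and none was higher at the threshold (limma), beside 0.310% lower and 0.971% higher among all genes. At an unadjusted p under 0.05 there were 11 of 98 (11.2%), against 17.2% of all genes. The median difference was -0.02.

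**Figure D4:**
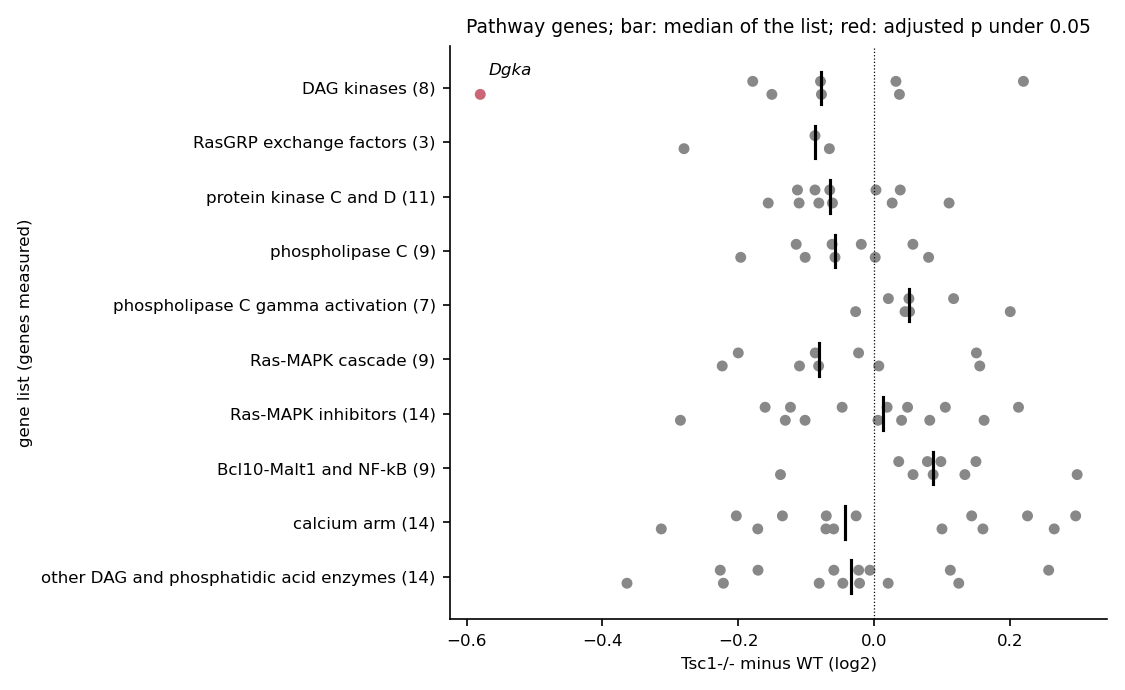
Difference Tsc1-/- minus WT on the log2 scale for the 98 measured pathway genes, 1 row per list with the number measured; the bar is the median of the list and red marks an adjusted p under 0.05. Dgka at -0.58 stands apart from the other genes, which lie between -0.36 and 0.30.

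The diacylglycerol kinase list had 8 measured genes, of which 1 was lower and 7 did not pass, with a median of -0.08. The highest difference in it was that of Dgkh, the eta kinase, at 0.22 (95% interval -0.01 to 0.45; adjusted p = 0.322, limma). None of the 3 RasGRP genes passed (median -0.09). Rasgrp4, an exchange factor known from mast cells and other myeloid cells, differed by -0.28 (adjusted p = 0.258, limma). Its WT values, from 5.85 to 6.39, overlapped those of Tsc1-/-, from 5.60 to 6.01.

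None of the 11 genes of protein kinases C and D passed (median -0.07, from -0.16 for Prkcq to 0.11 for the conventional kinase gene Prkca). None of the 9 phospholipase C genes passed (median -0.06), with Plce1, a phospholipase regulated by Ras, at -0.20 and Plcb2, activated by G proteins, at -0.11. Plce1 was dim, averaging 3.71 in WT and 3.51 in Tsc1-/-, against a median level over genes of 6.34. Of the 7 measured genes that help activate phospholipase C gamma, none passed and 6 had a positive difference (median 0.05). Zap70, the kinase that phosphorylates the adaptor Lat, differed by 0.20 (95% interval 0.00 to 0.40; adjusted p = 0.287, limma), and Vav1, an exchange factor for Rac, by 0.12.

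Downstream, none of the 9 genes of the Ras-MAPK cascade passed (median -0.08). The Raf kinase genes Araf and Braf differed by -0.20 and -0.22 (adjusted p = 0.192 and 0.301, limma). None of the 14 inhibitors of the cascade passed (median 0.01), with Spred1, which restrains Ras activation with neurofibromin, at -0.29 (adjusted p = 0.188, limma) and Rasal1, a Ras GTPase-activating protein, at -0.16. Of 9 genes of the Bcl10-Malt1 and NF-kB list none passed and 8 had a positive difference (median 0.09). Nfkbia, the NF-kB inhibitor that NF-kB itself induces, differed by 0.30 (95% interval 0.00 to 0.60; adjusted p = 0.293, limma), and Ikbkb, the kinase subunit that targets it, by -0.14.

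In the calcium arm none of 14 genes passed (median -0.04), and 4 (28.6%) had an unadjusted p under 0.05, against 17.2% of all genes. Of these 4, Itpr2 was lower in Tsc1-/-, and Ppp3r1, Ppp3ca and Stim1 were higher. Ppp3ca differed by 0.27 without overlap (adjusted p = 0.140, limma) and Stim1 by 0.23 with overlap (adjusted p = 0.278, limma). Itpr2, a receptor for inositol trisphosphate on the endoplasmic reticulum, read 8.94, 8.87, 8.70 and 8.79 in WT and 8.42, 8.60, 8.61, 8.53 and 8.39 in Tsc1-/-. The genotypes did not overlap, and the difference was -0.31 (SE 0.08; adjusted p = 0.0784, limma). Itpr2 passed only with dim genes left out (adjusted p = 0.0334) and with a variance trend and robust estimation (adjusted p = 0.0358). Ppp3r1, the regulatory subunit of calcineurin, was at 7.73, 7.83, 7.76 and 7.63 in WT and 8.003, 7.98, 8.25, 7.85 and 8.10 in Tsc1-/-, again without overlap, and differed by 0.30 (adjusted p = 0.114, limma).

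Among 14 further enzymes of diacylglycerol and phosphatidic acid none passed (median -0.03). Pld1, a phospholipase that makes phosphatidic acid from phosphatidylcholine, was dim, at 4.72, 4.68, 4.81 and 4.83 in WT and 4.50, 4.53, 4.26, 4.29 and 4.41 in Tsc1-/-. The genotypes did not overlap, and the difference of -0.36 (SE 0.08) did not pass (adjusted p = 0.0529, limma), though it did with array weights (adjusted p = 0.0399). Plpp3, a lipid phosphatase that can turn phosphatidic acid back into diacylglycerol, differed by -0.22 (adjusted p = 0.232, limma). Lpin1, which makes diacylglycerol from phosphatidic acid in lipid synthesis, was named after its values were seen. It read 8.08 in Tsc1-/- replicate 1, 8.71 to 8.84 in the other Tsc1-/- arrays and 8.31 to 8.47 in WT, a difference of 0.26 (adjusted p = 0.374, limma), and without that array it differed by 0.40 (adjusted p = 0.0380, limma).

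The genes whose pattern over the 9 arrays was most like that of Dgka were sought among 8251 genes at or above the median level. Genes named Gm with a number or with a name ending in Rik were left out of these. The highest Pearson correlations were those of Itga4, the alpha 4 integrin (0.978), Mycbp2 (0.965), Fbxl20 (0.963), Ifi213 (0.959) and Dusp12 (0.956), whose own differences were -0.26, -0.36, -0.42, -0.44 and -0.22. The lowest were those of AA467197 (-0.990), Rpn2, of the oligosaccharyltransferase (-0.987), and Selenoh (-0.976), which differed by 1.57, 0.29 and 0.35. These 9 arrays share the split by genotype, which by itself raises such correlations for any gene that differs between the groups. After the genotype means were subtracted, the deviations of Dgka were most like those of Crlf3 (0.951), Kcnt1 (0.939), Akap8 (0.921), Zfp512b (0.921) and Zer1 (0.915). In the same deviations AA467197 and Rpn2 stood at -0.94, Itga4 at 0.86, Prkcq at 0.40 and Dgkz at -0.20. These correlations describe 9 arrays, and genes picked as the extremes of so many have high values by selection.

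**Figure D5:**
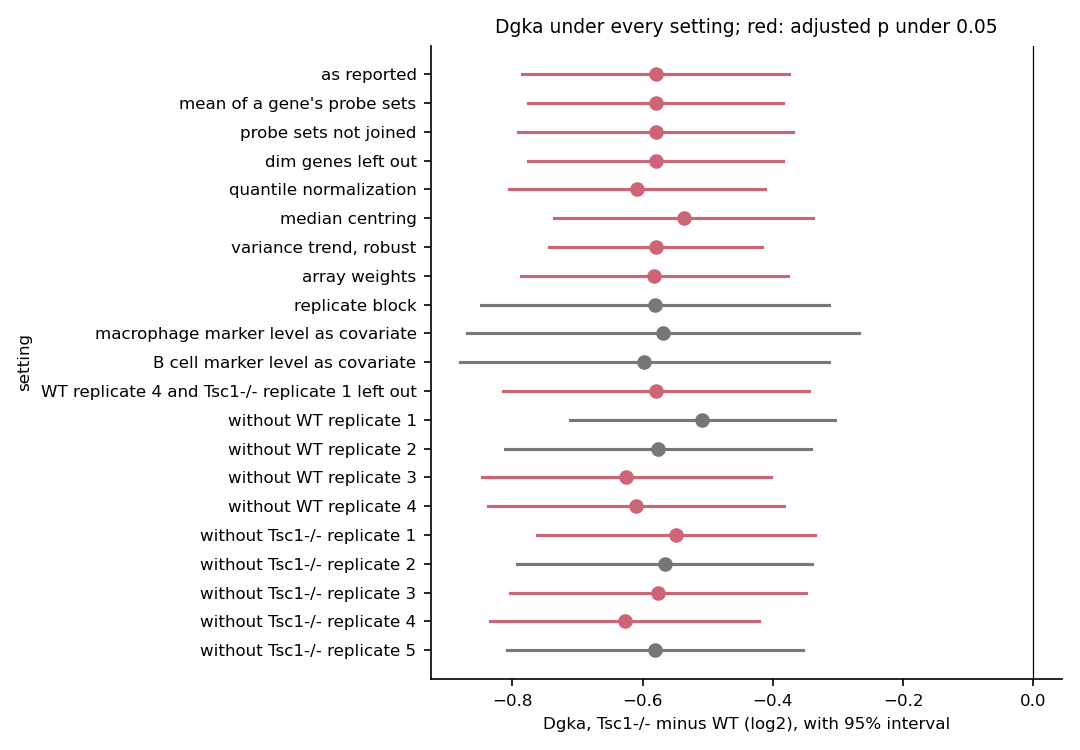
Difference of Dgka, Tsc1-/- minus WT on the log2 scale, with 95% intervals, as reported and in 20 other settings; red marks an adjusted p under 0.05. The difference stays between -0.63 and -0.51, and the call is lost in 7 of the 20.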

How the data were processed

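Per the submitters' processing notes, the deposited log2 expression values per probe set were made by the authors with RMA, with Partek 6.5 also named; RMA corrects the background, quantile normalizes probes across arrays and summarises probe sets, so these values cannot show a shift common to most transcripts. Its options were not given in the sources used here. Of 45037 probe sets, 28898 had 1 gene in the platform annotation, 551 several and 15588 were not listed; symbols were updated through Entrez identifiers for 28689. All 17097 genes were fitted in R 4.3.3 with limma 3.58.1 (lmFit, eBayes), genotype as the only term, two-sided, Benjamini-Hochberg adjusted over all genes, no filter. Differences are Tsc1-/- minus WT, and standard errors are moderated. The test was checked on simulated data with independent values and no array or cell mixture effects. That check cannot speak to such effects in these arrays. Sequences are RefSeq's for GRCm38.p6, whose use here is separate from the arrays. Figures were drawn in Python 3.11.15.

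The members and lists were chosen with earlier results of these data known, and 1 further gene of the lists is not reported here. The exact permutation tests planned for the gaps Dgka minus Dgkz and Prkcq minus Prkcd are not given, since the choice of these genes used the same arrays. Named were the 8 members, Tsc1, each pathway gene past the threshold or, in a list with none, the 2 with the smallest p, and the genes most and least like Dgka. In the macrophage and B cell lists the 2 markers with the largest absolute difference were named. Dgkh, Lpin1, Ppp3ca, Stim1 and the markers Cd3e, Cd8a, Gzma, Adgre1 and C1qc were named outside these rules, after their values were seen. The number of arrays limits the precision. The 20 other settings were averaged probe sets per gene, unjoined probe sets, dim genes left out, quantile normalization, median centring, variance trend, array weights, replicate block, 2 marker covariates, 2 arrays left out together, and each of the 9 arrays left out.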

Additional observations from a re-analysis of the deposited data

Results flagged for a closer look

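Dgkz in WT had an array that stood apart: replicate 4 read 11.14, while the other 3 WT arrays lay between 10.83 and 10.88. Its gap to the nearest array was 0.863 of the range of the group, above the 95% critical value of Dixon for 4 samples. About 1 in 20 groups is expected to do so by chance, and the values checked here formed 64 such groups. No other of these groups was flagged, so an array flagged in this way is no more than chance would give. The difference of Dgkz was -0.15 with this array and -0.08 without it.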

How the results depend on the processing

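Of the 8 genes, 1 passed the threshold as reported (Dgka), and 1 passed in 13 of the 20 other settings; 0 passed with the replicate block, and with a macrophage or a B cell marker covariate (limma), and leaving out single arrays gave 0 to 1. Over all genes, the same settings gave 0 lower genes at the threshold by limma, with 1051, 687 and 756 at an unadjusted threshold of 0.05, Dgka among them. The cause was not tested. The replicate block left Dgka at -0.58 (adjusted p = 0.152, limma). Over all probe sets, the deviations of same-numbered arrays of the genotypes had correlations of -0.07 to 0.10. The labels do not say what the replicate number stands for, and a handling shared by same-numbered arrays was not tested. The block used 8 arrays.

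The number of genes lower among all tested was 53 as reported, 156 with dim genes left out, 32 with quantile normalization, 171 with a variance trend and robust estimation, 125 with array weights and 145 without WT replicate 4 and Tsc1-/- replicate 1, and it was 1 to 159 when single arrays were left out. The number of pathway genes past the threshold was 1 as reported, 2 with dim genes left out, a variance trend, array weights, or without WT replicate 4 and Tsc1-/- replicate 1, 0 with the replicate block and with either marker level, and 0 to 2 when single arrays were left out.

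Differences that were near 0 changed sign. Dgke (0.032) was -0.0012 with the mean of its probe sets, -0.076 with the macrophage and -0.019 with the B cell marker level, and -0.059 to 0.086 without single arrays. Rasgrp2 (-0.09) was 0.036 without WT replicate 4 and Tsc1-/- replicate 1 and -0.15 to 0.022 without single arrays. Prkcd (-0.11) was 0.037 with the macrophage marker level. Plcg1 (-0.02) was 0.058 with the mean of its probe sets, 0.024 with median centring, 0.0012 with array weights, 0.051 without WT replicate 4 and Tsc1-/- replicate 1, and -0.091 to 0.062 without single arrays. Prkcq minus Prkcd (-0.04) was 0.0034 with the mean of probe sets and -0.12 to 0.027 without single arrays. Dgka minus Dgkz was -0.53 to -0.34 without single arrays. Dgkz (-0.15), Rasgrp1 (-0.07) and Prkcq (-0.16) kept a negative difference in all 20 settings and passed in none of them, but their size moved: Dgkz from -0.29 with the macrophage marker level to -0.043 with the mean of its probe sets, Rasgrp1 from -0.12 without WT replicate 4 and Tsc1-/- replicate 1 to -0.0051 without Tsc1-/- replicate 2, and Prkcq from -0.22 with the macrophage marker level to -0.11 with median centring.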
